A study of Mus musculus with 8 samples.

Results

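The Zfp genes are the mouse genes named zinc finger protein and a number, most of which encode DNA-binding proteins with C2H2 zinc fingers. A total of 231 of them were described here, out of 377 protein-coding Zfp genes and 26709 genes in the deposited tables. They were chosen by gene name, by protein-coding biotype and by a mean of at least 5 CPM (counts scaled to 1000000 per library) over the 8 libraries, and were proposed with the contrast between the treatment groups in view, so their counts in that contrast are descriptions and support nothing. The lowest members above that level were Zfp296, Zfp341 and Zfp658, at group means of 4.47 and 5.94, 5.41 and 4.68, and 5.85 and 4.52 CPM in IgG and treated tumours. The nearest Zfp genes below it were Zfp983, Zfp688 and Zfp28, at means of 4.97, 4.94 and 4.88 CPM over all libraries. In all, 146 Zfp genes lay below it. Each of the 231 members passed the low-count filter of the test.

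RNA was sequenced from 8 mammary tumours of EMT6, an established mouse mammary carcinoma line, grown in syngeneic Balb/c mice and labelled wild type. The 4 control tumours were labelled IgG. The other 4 were labelled Granzyme-B, for GrB-Fc-KS49, which the series title describes as a human granzyme B fusion against EMP2, a protein of the cell membrane. Each group was treated 3 times in 10 days, and the comparison bears on changes of the tumour and its immune cells under the agent. The sources used here give neither the age of the mice nor whether each tumour came from a separate animal, so the p-values reflect only the variation among these tumours, which may be technical. The titles of IgG 1 and GrB-Fc-KS49 3 carry the suffix U, which is not explained there.

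Library totals ran from 73.98 to 82.62 M estimated counts. The tumours are labelled as epithelial, and of the epithelial markers Krt8 was at 391 to 629 CPM while Epcam was at 2.73 to 16.0 CPM and Cldn7 at 0.113 to 0.438 CPM. Markers of tissue around the tumour were highest in a different treated library for each tissue, and other treated libraries were also above the controls. The summed level of 10 skeletal muscle markers was 2828 CPM in GrB-Fc-KS49 1 against 50.4 to 243 CPM in the controls. In GrB-Fc-KS49 2 and 3 that sum was 356 and 447 CPM. For 6 skin markers it was 1683 CPM in GrB-Fc-KS49 2 against 2.18 to 4.92 CPM, and 10.7 and 6.09 CPM in GrB-Fc-KS49 1 and 3. For 7 adipocyte markers it was 456 CPM in GrB-Fc-KS49 3 against 47.6 to 86.2 CPM, and 147 CPM in GrB-Fc-KS49 1. GrB-Fc-KS49 4 was above the highest control for none of these lists. Across 14471 genes with a transcript length and GC content, a library's deviation from the mean of each gene increased with length in the controls (Spearman's rho across genes 0.31 to 0.38) and decreased with length in the treated libraries (-0.41 to -0.07). These are values across genes, which are not independent of each other.

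A C2H2 finger holds a zinc ion between a pair of cysteines and a pair of histidines, and proteins of this family carry arrays of such fingers that read DNA a few bases per finger. Many of the mouse genes also encode a KRAB box, a short domain that recruits the corepressor TRIM28 (KAP1), which in turn brings the histone methyltransferase SETDB1 and HP1 proteins to the bound site. KRAB zinc finger proteins are known mainly for silencing retroelements and for keeping imprinted methylation, and their genes lie in clusters that arose by tandem duplication. Other members bind RNA, act in chromatin complexes or carry a different kind of finger.

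A transcript with a coding sequence was matched for 230 members, all but Zfp469. Of these, 117 had a predicted KRAB box together with C2H2 fingers, 108 had C2H2 fingers without a KRAB box, and 5 had no match to the C2H2 pattern. The median was 10 fingers and the maximum 36, in Zfp142. The sequences below show 1 finger each, chosen to set KRAB members with low p-values (Zfp729a, Zfp748 and Zfp930) beside C2H2 members without a KRAB box (Zfp62, Zfp771 and Zfp644) and beside a finger of the CCCH type (Zfp36). Each is the coding sequence 5′ to 3′, with the codons of the zinc-binding cysteines and histidines in capitals.
Zfp729a: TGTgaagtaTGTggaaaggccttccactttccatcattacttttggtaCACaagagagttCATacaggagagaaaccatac
Zfp748: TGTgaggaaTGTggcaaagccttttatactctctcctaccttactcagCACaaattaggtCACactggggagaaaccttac
Zfp930: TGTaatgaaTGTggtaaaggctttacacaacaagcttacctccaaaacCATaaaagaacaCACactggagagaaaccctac
Zfp62: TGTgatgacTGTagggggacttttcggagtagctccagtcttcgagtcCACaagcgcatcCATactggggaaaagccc
Zfp771: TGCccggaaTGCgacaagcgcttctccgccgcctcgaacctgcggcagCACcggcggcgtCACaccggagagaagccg
Zfp644: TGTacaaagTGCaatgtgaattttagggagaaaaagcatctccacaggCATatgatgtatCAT
Zfp36: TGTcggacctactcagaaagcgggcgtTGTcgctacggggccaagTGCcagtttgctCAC
The C2H2 fingers share the spacing of the 4 capital codons, and in those other than that of Zfp644 the bases after the last histidine encode the linker to the next finger. The sequences of Zfp644 and Zfp36 end at the last histidine. The codons of Zfp771 are rich in G and C beside those of the KRAB members. The finger of Zfp36 has 3 cysteines and 1 histidine and binds RNA. Because fingers resemble each other between genes, reads can be hard to assign: 34 members had at least 20% of their transcript's 31-base words also in a transcript of another gene, and 61 members overlapped a gene on the opposite strand. The sources used here do not give how the authors' counting treated such reads.

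Most Zfp genes had a lower group mean in GrB-Fc-KS49 tumours than in controls, by a small amount. The group mean was lower for 195 of 231 members, against 46.8% of all 19718 genes tested and 56.2% of the 10515 other protein-coding genes at the same level. The median log2 fold change (GrB-Fc-KS49 against IgG) of the members was -0.26, from -0.91 for Zfp800 to 0.65 for Zfp575, beside 0.03 for all genes tested and -0.05 for the other protein-coding genes. All 4 treated tumours were below all 4 controls in 107 members, against 15.3% of all genes tested and 21.9% of the other protein-coding genes. All 4 treated tumours were above all controls in 4 members (Zfp524, Zfp771, Zfp949 and Zfp787), against 10.3% and 10.6%.

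No member passed the test across the whole table. With edgeR's quasi-likelihood F test, 0 of 231 members had a Benjamini-Hochberg adjusted p under 0.05, as did 0.0% of all genes tested and 0.0% of the other protein-coding genes. The smallest adjusted p of a member was 0.0619. Many members share this value, with unadjusted p-values from 1.58e-04 to 0.00446 by the same edgeR test. In simulated data of 19445 genes, with 67, 65 and 64 changed 1.5, 2 and 4 times, this test recovered 7.5% of those changed 1.5 times. A count of 0 thus does not show that levels were equal. Many more genes had a low unadjusted p in the tumours than were changed in the simulation, so recovery in the tumours may differ. At an unadjusted p under 0.05, 52.4% of the members were lower, against 17.8% of all genes tested and 25.8% of the other protein-coding genes, and 8 were higher, against 17.3% and 15.2%. DESeq2 called 97 members lower, against 12.8% of all genes and 18.5% of the other protein-coding genes, and 5 higher, against 11.7% and 11.3%. With edgeR, 42 members were called without GrB-Fc-KS49 1, all lower, beside 1260 of 19944 genes and 8.98% of the other protein-coding genes in that fit. Without GrB-Fc-KS49 4 there were 71, all lower, beside 3447 of 20102 genes and 22.6% of the other protein-coding genes. Because the rule named this contrast, nothing is read from the distance between these counts and the background shares.

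Set out by library, the members' levels were lowest in GrB-Fc-KS49 1. The median deviation of the members from their own gene means was 0.10, 0.11, 0.19 and 0.13 (log2) in IgG 1 to 4, and -0.33, -0.09, -0.07 and -0.06 in GrB-Fc-KS49 1 to 4. In the other protein-coding genes the same medians were 0.02, 0.04, 0.05 and 0.01 in the controls and -0.06, -0.03, -0.04 and 0.00 in the treated libraries. With each library's trend with length and GC content removed, the members' medians were 0.03, 0.06, 0.11 and 0.08 in the controls and -0.17, -0.05, -0.02 and -0.05 in the treated libraries, and those of the other genes 0.02, 0.04, 0.05 and 0.01, and -0.05, -0.03, -0.04 and 0.01. In GrB-Fc-KS49 3 the members then lay above the other genes. Without this removal, GrB-Fc-KS49 1 was the lowest of the 8 libraries in 149 members (64.5%) and in 37.1% of the other protein-coding genes, and IgG 3 was the highest in 86 members. The summed level of all members was 6080 to 6339 CPM in the controls and 4628.5, 5153, 5292 and 5526 CPM in GrB-Fc-KS49 1 to 4. The 4 control sums lay above all 4 treated sums. Without GrB-Fc-KS49 1 the members' median log2 fold change was -0.21, with 111 of 231 members lower at an unadjusted p under 0.05, beside a median of -0.04 and 23.3% lower in the other protein-coding genes. A member varied more among treated than among control tumours, with a median coefficient of variation of 12.7% against 6.16%, as did the other protein-coding genes, at 13.4% against 6.30%.

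**Figure D1:**
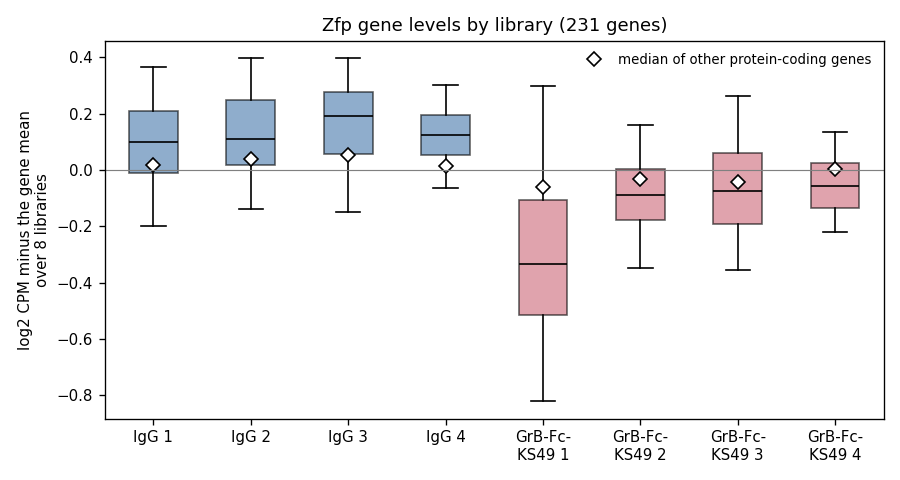
Deviation of each of the 231 Zfp genes from its own mean over the 8 libraries (log2, vertical axis) in each library (horizontal axis). Boxes span the quartiles with a line at the median, whiskers the 5th to 95th percentile, and diamonds mark the median of the other protein-coding genes at the same CPM level. The control medians lie between 0.10 and 0.19 and the treated medians between -0.33 and -0.06.

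In bulk tumour RNA, fewer cells of a type and less RNA per cell cannot be told apart, and the summed levels of several marker lists moved with the groups, with overlap for all but the B cell list, the ribosomal protein genes and the proliferation genes. The ribosomal protein and proliferation lists were chosen as processes that differ with the groups, so their separation supports nothing. The summed level of the 9 macrophage markers was 1131 to 1477 CPM in the controls and 1469 to 3172 CPM in treated tumours, with 8 of 9 at a higher mean, and that of the 11 T cell markers was 11.9 to 18.1 CPM against 14.3 to 77.0 CPM, with 11 of 11 higher. All 4 tested B cell markers of 7 were higher, with a sum over the 7 of 0.822 to 1.24 CPM against 1.37 to 5.72 CPM. All 10 muscle, all 7 adipocyte and both tested skin markers of 6 were higher too, with treated sums of 48.5 to 2828, 67.2 to 456 and 2.32 to 1683 CPM. No marker of these lists was at 0 in every control, while the skin markers Krtdap and Dsg1a were at 0 in 2 and 1 controls and Krtdap in 1 treated library. The endothelial sum was 131 to 254 CPM against 172 to 262 CPM, with 4 of 6 markers higher, and the fibroblast sum 7303 to 11241 CPM against 5369 to 13380 CPM, with 3 of 6 higher. All 6 epithelial markers had a higher treated mean, with sums of 473 to 554 CPM in controls and 467 to 801 CPM in treated tumours. The 12 proliferation genes summed to 1597 to 1640 CPM in controls and 1324 to 1553.5 CPM in treated tumours. A higher treated mean was found in 20 of 21 ribosomal protein genes, with a median log2 fold change of 0.33. With the length and GC trend removed, that median was 0.02 and 10 of the 21 were lower. For the proliferation genes the median went from -0.21 to -0.18, with 8 of 12 then lower. The part of these differences in the levels of the Zfp genes was not tested.

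Members with a KRAB box and members without one both had mostly lower means. Of the 117 KRAB members, 110 had a lower treated mean, 68 were lower and 1 higher at an unadjusted p under 0.05, 61 were lower in every treated tumour, and the median log2 fold change was -0.31. The KRAB members with a higher mean were Zfp949, Zfp950, Zfp30, Zfp954, Zfp120, Zfp991 and Zfp707, with log2 fold changes from 0.06 to 0.26. Of the 108 C2H2 members without a KRAB box, 81 had a lower mean, 53 were lower and 7 higher at an unadjusted p under 0.05, 46 were lower in every treated tumour, and the median was -0.22. Among all genes tested, 17.8% were lower and 17.3% higher at that p, and 15.3% lower without overlap. The shares of the other protein-coding genes were 25.8%, 15.2% and 21.9%. KRAB members were expressed at a lower level, with a median of 10.9 CPM against 26.3 CPM, and their transcripts had a median GC content of 41.7% against 51.3%. The 5 members without a C2H2 match (Zfp36, Zfp330, Zfp503, Zfp703 and Zfp839) had 3 lower means and a median of -0.00. With the length and GC trend removed, the median was -0.14 in KRAB members (97 of 117 lower) and -0.10 in C2H2 members without a KRAB box (78 of 108 lower). The difference between the classes was not tested.

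**Figure D2:**
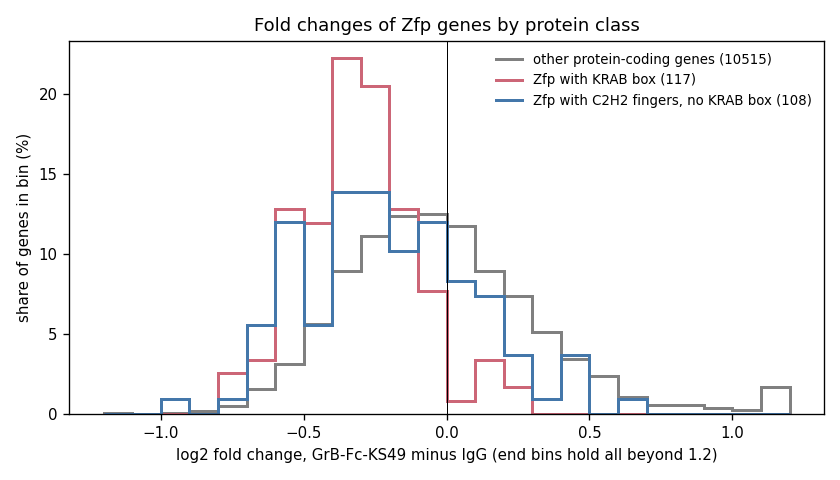
Distribution of log2 fold changes (GrB-Fc-KS49 against IgG, horizontal axis, bins of 0.1) as the percent of genes in each set (vertical axis), for KRAB members, C2H2 members without a KRAB box and other protein-coding genes at the same level. The medians are -0.31, -0.22 and -0.05.

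The KRAB members with the smallest p-values encode arrays of C2H2 fingers behind the KRAB box. Zfp729a (ENSMUSG00000021510, chromosome 13, 67760882 to 67785910, GRCm39, 27 fingers) was at 18.1, 18.2, 20.5 and 17.7 CPM in IgG 1 to 4 and at 12.2, 13.2, 13.3 and 13.6 CPM in GrB-Fc-KS49 1 to 4. Every treated tumour was below every control, and the treated tumours lay close together. The log2 fold change was -0.51, standard error (SE) 0.08 (edgeR, adjusted p = 0.0619). This gene shares 25.2% of its 31-base words with other genes, so its reads may be divided with relatives. Zfp748 (chromosome 13, 67686760 to 67701949, 23 fingers) was at 18.1, 19.1, 18.3 and 15.8 CPM in the controls and 9.94, 12.8, 11.9 and 12.4 CPM in the treated tumours. Again no treated tumour reached the lowest control, and GrB-Fc-KS49 1 was the lowest. The log2 fold change of Zfp748, which overlaps a gene on the opposite strand, was -0.60 with an SE of 0.11 (edgeR, adjusted p = 0.0619). Zfp930 (chromosome 8, 69661690 to 69683188) was at 18.2, 18.8, 20.8 and 20.1 CPM in controls and 11.6, 15.3, 12.4 and 14.4 CPM in treated tumours, a log2 fold change of -0.54. The groups did not overlap. Zfp111 and Zfp84, KRAB genes at separate places on chromosome 7, had log2 fold changes of -0.56 and -0.54, and Zfp81 on chromosome 17 had -0.45. Zfp935 and Zfp97, at -0.43 and -0.46, share 71.7% and 87.7% of their 31-base words with other genes and are uncertain for that reason. In all of these the treated values lay below the control values.

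Members known for silencing retroelements and for imprints had lower means in 6 of 6 cases, with a median log2 fold change of -0.37. At an unadjusted p under 0.05, 4 were lower, against 17.8% of all genes tested and 25.8% of the other protein-coding genes. Without overlap there were 3, against 15.3% and 21.9%. Zfp445, which maintains imprinted methylation, was at 59.4, 62.6, 59.3 and 60.5 CPM in the controls and 34.8, 45.6, 49.9 and 45.6 CPM in treated tumours. The 4 controls were within a few CPM of each other and all treated tumours lay below them, at a log2 fold change of -0.46 (SE 0.11). Zfp57, the other imprint regulator of the list, was at 9.56, 9.17, 8.88 and 12.05 CPM against 10.4, 9.48, 11.05 and 8.54 CPM. Its groups overlapped throughout, and its log2 fold change of -0.01 changed sign with the scaling. Zfp568, which represses a placental transcript of Igf2 in the embryo, was at 31.8, 30.2, 28.9 and 28.6 CPM against 15.6, 19.6, 23.0 and 24.6 CPM, a log2 fold change of -0.53 (SE 0.13). Zfp809, which recognises the primer binding site of murine leukaemia virus and silences it, was at 10.1, 11.4, 11.2 and 9.99 CPM against 7.27, 8.63, 7.49 and 8.55 CPM, a log2 fold change of -0.42 (SE 0.10). Neither gene overlapped between groups. With the length and GC trend removed, the median of this list was -0.19, with 5 of 6 lower, and Zfp445 was at -0.17, Zfp568 at -0.44 and Zfp809 at -0.54. Without that removal, Zfp961 and Zfp932 had log2 fold changes of -0.32 and -0.08 with overlapping groups, and Zfp932 shares 72.6% of its 31-base words with other genes.

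Members that act as chromatin cofactors had lower means in 6 of 6 cases, with a median of -0.41. Of these, 5 were lower at an unadjusted p under 0.05, against 17.8% of all genes tested and 25.8% of other protein-coding genes. The count without overlap was 4, against 15.3% and 21.9%. Zfp644, a partner of the H3K9 methyltransferases EHMT1 and EHMT2 (ENSMUSG00000049606, chromosome 5, 106764605 to 106845153), was at 32.8, 30.7, 34.9 and 30.8 CPM in the controls and 19.3, 22.3, 20.9 and 24.7 CPM in the treated tumours. All treated tumours were below all controls, at a log2 fold change of -0.57 with an SE of 0.09 (edgeR, adjusted p = 0.0619). Zfp462, which acts with the same enzymes at heterochromatin and encodes 33 matches to the finger pattern, was at 42.5, 53.5, 43.8 and 42.2 CPM against 22.3, 23.4, 34.4 and 43.2 CPM. GrB-Fc-KS49 4 lay within the controls and the other treated tumours below them, and the log2 fold change was -0.56 with an SE of 0.21. Zfp592, Zfp532 and Zfp687, which form a complex with the acetyl-lysine reader ZMYND8, had log2 fold changes of -0.38, -0.44 and -0.25, each without overlap. Zfp827, which recruits the NuRD complex, had a log2 fold change of -0.18, with 2 treated tumours at 43.8 and 45.7 CPM and the others at 68.7 CPM, above the controls, and 62.6 CPM, within them.

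Members with a role in RNA or translation were divided, with lower means in 4 of 8 cases, all 4 at an unadjusted p under 0.05 and without overlap. The shares lower at that p were 17.8% of all genes tested and 25.8% of the other protein-coding genes, and those without overlap 15.3% and 21.9%. Zfp106, an RNA-binding protein and the most abundant member at a mean of 240 CPM, was at 275, 280, 313 and 270 CPM in controls and 181.7, 202.5, 171.35 and 233.3 CPM in treated tumours. No treated tumour reached the lowest control, and the log2 fold change was -0.53 with an SE of 0.11 (edgeR, adjusted p = 0.0619). Zfp638, a nuclear protein that represses unintegrated retroviral DNA, was at 68.7, 72.9, 84.3 and 76.0 CPM against 51.7, 58.7, 56.8 and 60.5 CPM, a log2 fold change of -0.41. Zfp207 (BuGZ), a spindle protein that binds BUB3, had a log2 fold change of -0.34. Zfp598, the ubiquitin ligase that detects collided ribosomes, had -0.33. The other members of this group did not separate the tumours. Zfp36 (tristetraprolin), which binds AU-rich elements and speeds mRNA decay, was at 48.9, 51.7, 48.4 and 55.6 CPM against 88.7, 61.9, 42.0 and 50.4 CPM. GrB-Fc-KS49 1 was the highest and GrB-Fc-KS49 3 the lowest of the 8 libraries. The log2 fold changes of Zfp326, a subunit of a complex linking transcription to splicing, of Zfp622, a factor of 60S ribosome maturation, and of Zfp830, a splicing factor, were 0.14, 0.08 and 0.02, and that of Zfp830 was -0.11 with the length and GC trend removed.

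Members that activate or occupy promoters had lower means in 4 of 4 cases, with a median of -0.46. All 4 were without overlap, against 15.3% of all genes tested and 21.9% of the other protein-coding genes that were lower in that way. Zfp335, a promoter-binding protein needed for neural progenitors, was at 22.2, 22.6, 22.5 and 22.7 CPM in controls and 10.5, 14.2, 15.3 and 18.9 CPM in treated tumours. The controls were nearly equal, with a coefficient of variation of 0.945%, and the treated tumours were spread out below them, at a log2 fold change of -0.61 (SE 0.16). Zfp131, a BTB-domain zinc finger protein, was at 48.9, 43.6, 45.02 and 44.6 CPM against 23.7, 29.9, 30.5 and 36.1 CPM, a log2 fold change of -0.60 (SE 0.12). Zfp143, which binds many promoters, was at 21.01, 20.6, 22.1 and 20.3 CPM against 15.2, 17.8, 16.4 and 17.8 CPM, a log2 fold change of -0.32 (SE 0.08). For Zfp384 the log2 fold change was -0.14. Zfp131, Zfp143 and Zfp335 overlap genes on the opposite strand, and Zfp384 shares 24.9% of its 31-base words with other genes.

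Members of the ubiquitin and SUMO pathways had lower means in 3 of 3 cases, with a median of -0.20, and those studied in cancer or differentiation in 5 of 5, with a median of -0.24. At an unadjusted p under 0.05, 2 of the 3 and 2 of the 5 were lower, against 17.8% of all genes tested and 25.8% of the other protein-coding genes. Lower without overlap were 1 of the 3 and 2 of the 5, against 15.3% and 21.9%. Zfp451, a SUMO ligase, Zfp746 (PARIS), a substrate of parkin, and Zfp91, a ubiquitin ligase, had log2 fold changes of -0.35, -0.20 and -0.15, of which Zfp451 was without overlap and Zfp91 was not past an unadjusted p of 0.05. Zfp217, whose human counterpart is amplified in breast cancer, was at 49.8, 49.9, 59.3 and 55.8 CPM against 42.6, 46.9, 44.8 and 47.0 CPM, without overlap, at a log2 fold change of -0.24. Zfp148, a GC-box binding factor, had -0.30, also without overlap. Zfp703, which is amplified in luminal breast cancer, was at 176, 180, 136 and 160 CPM against 85.1, 121.4, 154.3 and 159.97 CPM. Its groups overlapped, and 2 treated tumours were within the range of the controls. Zfp292 and Zfp281 had log2 fold changes of -0.23 and -0.21, with overlap. With the length and GC trend of each library removed, Zfp148, Zfp292, Zfp281 and Zfp91 were at 0.09, 0.16, 0.06 and 0.06, and of the chromatin cofactors Zfp827 was at 0.05. Zfp423, Zfp521 and Zfp750, of the same list, lay below the level of 5 CPM, at means of 1.73, 2.15 and 1.42 CPM over all libraries. All 3 had a higher treated mean, with log2 fold changes of 0.27, 0.15 and 4.21, so that 5 of the 8 genes listed were lower. Zfp750, a regulator of epidermal differentiation, was at 10.1 CPM in GrB-Fc-KS49 2, the library with the highest sum of skin markers, and at 0.124 to 0.263 CPM in the other libraries.

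**Figure D3:**
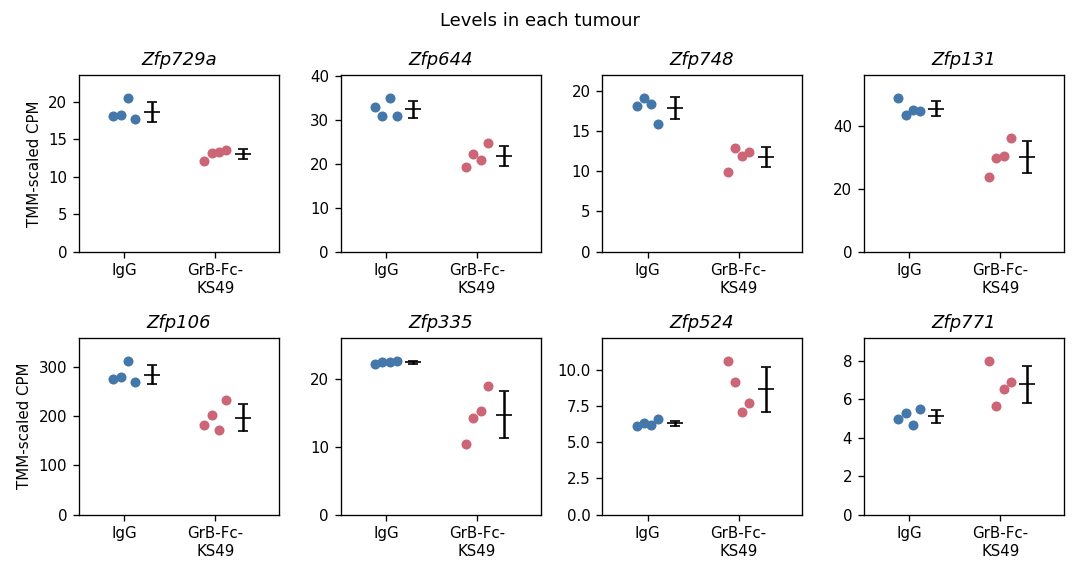
Level of 8 Zfp genes (TMM-scaled CPM, vertical axis, 1 panel per gene) in the 4 IgG and 4 GrB-Fc-KS49 tumours, with 1 point per tumour and a bar for the mean ± SD. Zfp729a, Zfp644, Zfp748, Zfp131, Zfp106 and Zfp335 are lower in every treated tumour, while Zfp524 and Zfp771 are higher in every treated tumour.

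The few members with a higher treated mean at an unadjusted p under 0.05 were 7 C2H2 genes without a KRAB box (Zfp524, Zfp771, Zfp575, Zfp444, Zfp579, Zfp414 and Zfp787) and the KRAB gene Zfp949. Zfp524 (chromosome 7, 5017414 to 5021487) was at 6.12, 6.29, 6.18 and 6.56 CPM in the controls and 10.6, 9.13, 7.09 and 7.68 CPM in the treated tumours. All treated tumours were above all controls, at a log2 fold change of 0.46 with an SE of 0.14 (edgeR, adjusted p = 0.0683). It shares 46.8% of its 31-base words with other genes and overlaps a gene on the opposite strand. Zfp771 (chromosome 7, 126843446 to 126853975) was at 4.98, 5.31, 4.69 and 5.48 CPM against 8.02, 5.64, 6.56 and 6.91 CPM, a log2 fold change of 0.41 (SE 0.13). The lowest treated tumour was just above the highest control. Zfp575 was at 4.83, 4.73, 4.23 and 5.07 CPM against 7.58, 4.30, 10.2 and 7.56 CPM. GrB-Fc-KS49 2 lay within the controls and GrB-Fc-KS49 3 was highest, at a log2 fold change of 0.65 with an SE of 0.23. The log2 fold changes of Zfp444, Zfp579 and Zfp414 were 0.35, 0.48 and 0.26, with overlapping groups. Zfp949 and Zfp787 had small differences, 0.23 and 0.17, without overlap. With the length and GC trend removed, Zfp524 was at 0.12, Zfp771 at 0.16, Zfp414 at -0.09 and Zfp787 at -0.02, while Zfp575, Zfp444, Zfp579 and Zfp949 were at 0.57, 0.49, 0.37 and 0.38.

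Per kilobase of transcript, the order of the members differs from that in CPM. Zfp207 was at 113 CPM per kilobase in controls and 89.2 in treated tumours. It lay above Zfp703 at 51.8 and 41.3, Zfp91 at 40.6 and 36.5, and Zfp106 at 31.3 and 21.7 CPM per kilobase, while the median member was at 4.72 CPM per kilobase in controls. Zfp106 leads in CPM with a transcript of 9085 bases, against 1562 bases for Zfp207. Among the controls the largest coefficients of variation were those of Zfp469 (27.8%), Zfp422 (23.0%) and Zfp579 (22.2%). The smallest were those of Zfp263 (0.765%), Zfp335 (0.945%) and Zfp410 (1.34%). Zfp410, known as an activator of the NuRD subunit gene Chd4, was at 40.1 to 41.2 CPM in controls and 34.8 to 44.7 CPM in treated tumours.

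The difference of the members moved with transcript length and GC content, as did that of other genes. The members' transcripts had a median of 3667 bases and 45.9% GC, against 3011 bases and 50.5% GC in the other protein-coding genes. In the quartiles of length, from short to long, the members' median log2 fold change was 0.07 (20 genes), -0.15 (57), -0.31 (76) and -0.34 (77), and that of the other genes 0.21, -0.01, -0.13 and -0.27. In the quartiles of GC content, from low to high, it was -0.33 (115 genes), -0.31 (37), -0.19 (35) and -0.05 (43), and that of the other genes -0.19, -0.11, -0.00 and 0.09. Within each quartile the members' median was below that of the other genes. With each library's smooth trend with length and GC removed, 178 of 230 members had a lower mean, 74 were lower and 5 higher at an unadjusted p under 0.05, 59 were lower without overlap, and the median was -0.13. Of the other protein-coding genes under the same removal, 18.1% were lower and 8.76% higher at that p, 13.8% were lower without overlap, and the median was -0.05. Across members, Spearman's rho of the log2 fold change was -0.46 with length, 0.45 with GC content and -0.37 with the number of fingers, and across other genes -0.56, 0.33 and -0.07. These values are across genes of the same 8 libraries. Of the members named above, Zfp729a, Zfp638 and Zfp81 were then at -0.11, -0.08 and -0.08, Zfp106, Zfp644 and Zfp748 at -0.22, -0.27 and -0.30, and Zfp131 and Zfp335 at -0.42 and -0.58. The medians of the role lists were then -0.23 for chromatin cofactors, -0.10 for RNA and translation, -0.31 for promoter factors, -0.18 for ubiquitin and SUMO, and 0.06 for the 5 members studied in cancer. The part of length and GC content in the difference was not tested beyond this removal.

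**Figure D4:**
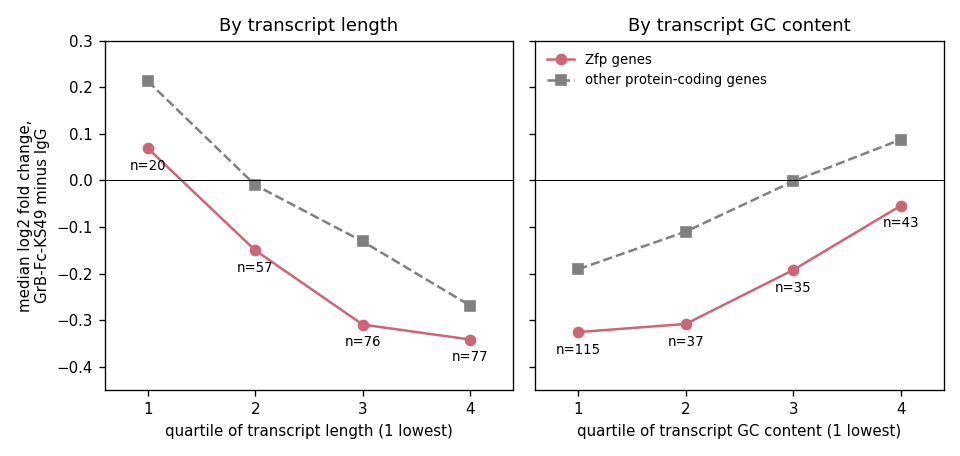
Median log2 fold change (vertical axis) of the Zfp genes and of the other protein-coding genes at the same level in quartiles of transcript length and of GC content (horizontal axis, bounds taken from the other genes). Both sets fall with length and rise with GC content, and the Zfp median is below the other in every quartile.

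Many members lie in tandem clusters, and most clusters had mostly lower means. The largest numbers of members were on chromosomes 7 (54 genes), 17 (31), 13 (18), 8 (17) and 9 (16), and the mean was lower for 41, 30, 18, 15 and 14 of these. Joining Zfp genes no more than 500000 bases apart gave 10 clusters with at least 5 members. In that on chromosome 13 (67186660 to 67975121, GRCm39), all 10 members were KRAB genes with a lower mean, with a median of -0.46 and a range of -0.72 to -0.14. In this cluster 9 were lower without overlap, against 15.3% of all genes tested and 21.9% of the other protein-coding genes. This cluster holds Zfp729a, Zfp748, Zfp58 and Zfp729b, of which Zfp729b was at 17.5 ± 0.715 CPM in controls and 10.6 ± 2.64 CPM in treated tumours (SD, n = 4 each). On chromosome 17 (21229165 to 23818461), all 12 members were lower, 7 without overlap, with a median of -0.38. A second cluster on that chromosome (32984470 to 33850753) had 11 of 12 lower and a median of -0.23, with Zfp414 the exception. On chromosome 9 (20256432 to 20516705) 5 of 5 were lower, with a median of -0.31. The cluster on chromosome 7 that holds Zfp575 (23781349 to 24926932) was mixed, with 5 of 7 lower and a range of -0.66 to 0.65. Within the chromosome 13 cluster, the share of 31-base words also found in other genes was 43.8% for Zfp729b and 50.5% for Zfp58 but 2.28% for Zfp748.

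**Figure D5:**
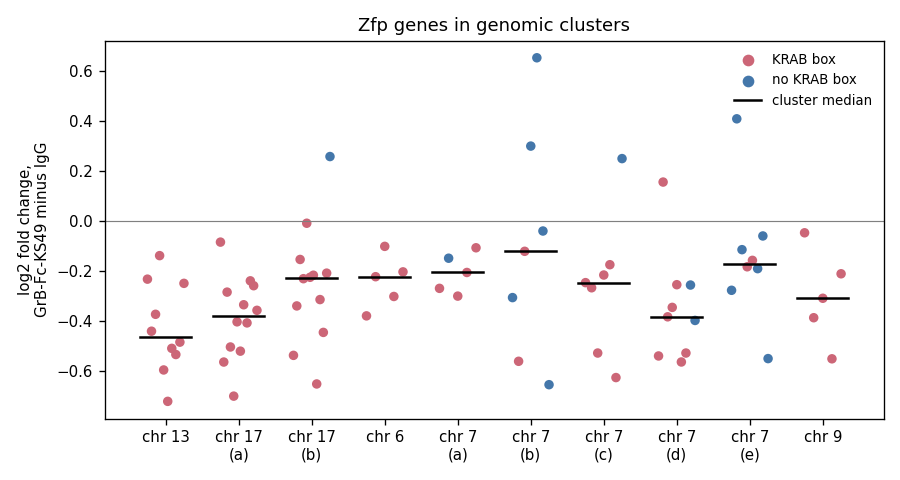
Log2 fold change (GrB-Fc-KS49 against IgG, vertical axis) of each member, 1 point per gene, in the 10 genomic clusters with at least 5 members, named by chromosome (horizontal axis). All members of the chromosome 13 cluster lie between -0.72 and -0.14, and the chromosome 7 cluster with Zfp575 runs from -0.66 to 0.65.

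Promoter windows from RefSeq (GRCm38.p6, 250 bases before to 50 bases after the gene's start) were found for 186 members. The sequences below are those of Zfp729a, a member with a low p-value (chr13:67637732-67638031, minus strand), and Zfp771, which was higher in every treated tumour (chr7:127244276-127244575, plus strand), 5′ to 3′ with each CpG in capitals. The third is Zfp58, a KRAB gene of the chromosome 13 cluster (chr13:67500473-67500772, minus strand), with the motif ACAATTCCC, found on the opposite strand, in capitals. This motif is part of the sequence bound by ZNF143, the human counterpart of ZFP143.
Zfp729a: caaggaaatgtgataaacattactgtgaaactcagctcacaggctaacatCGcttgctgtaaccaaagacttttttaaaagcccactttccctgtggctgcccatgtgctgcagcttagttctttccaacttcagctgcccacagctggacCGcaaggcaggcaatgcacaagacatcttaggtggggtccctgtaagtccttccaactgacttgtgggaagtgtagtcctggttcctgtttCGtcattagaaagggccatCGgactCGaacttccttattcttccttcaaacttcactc
Zfp771: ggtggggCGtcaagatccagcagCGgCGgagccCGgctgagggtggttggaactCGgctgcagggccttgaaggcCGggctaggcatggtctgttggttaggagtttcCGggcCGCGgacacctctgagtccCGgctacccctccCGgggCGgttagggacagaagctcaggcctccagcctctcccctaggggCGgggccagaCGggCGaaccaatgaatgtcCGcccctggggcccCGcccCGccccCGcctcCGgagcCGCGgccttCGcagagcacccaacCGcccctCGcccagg
Zfp58: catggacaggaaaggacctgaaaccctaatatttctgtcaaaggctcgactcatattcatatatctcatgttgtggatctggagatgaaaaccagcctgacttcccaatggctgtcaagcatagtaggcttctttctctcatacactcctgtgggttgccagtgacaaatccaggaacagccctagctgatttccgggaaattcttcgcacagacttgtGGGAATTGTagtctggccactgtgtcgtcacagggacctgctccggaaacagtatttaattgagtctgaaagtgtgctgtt
The window of Zfp729a had 47.7% GC and 5 CpG, and that of Zfp771 had 71.7% GC and 25 CpG. The members' windows had a median of 56.8% GC and 17 CpG, against 62.3% and 23 CpG in the other protein-coding genes at the level and 53.3% and 8 CpG in all 27025 windows. The motif ACAATTCCC, searched on both strands, was in 2.69% of the members' windows, 0.883% of those of the other genes and 0.488% of all windows. The ETS motif CCGGAAGT was in 10.8%, 9.27% and 4.06%, the NRF1 motif GCGCATGCG in 5.91%, 3.95% and 1.82%, and the YY1 motif AAGATGGC in 5.91%, 5.09% and 2.92%. The 5 members with ACAATTCCC were Zfp58, Zfp1, Zfp180, Zfp692 and Zfp933, with log2 fold changes of -0.37, -0.04, -0.31, 0.29 and -0.28. Across members, Spearman's rho between the GC content of the window and the log2 fold change was 0.17, and across the other genes it was -0.23. A match is a run of letters and shows no binding.

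The genes of the KRAB corepressor pathway were described from a list of 33, all tested. A lower treated mean was found in 27. At an unadjusted p under 0.05, 42.4% (14) were lower, against 17.8% of all genes tested and 25.8% of the other protein-coding genes. Mphosph8 was higher at that p, and 33.3% (11) were lower without overlap, against 15.3% and 21.9%. None passed the adjusted p by edgeR, and the median log2 fold change was -0.21. Trim28, the protein that KRAB boxes bind, was at 277, 283, 283 and 280 CPM in controls and 250, 247, 302 and 295 CPM in treated tumours. Its treated tumours lay on both sides of the controls, and its log2 fold change was -0.04, which changed sign with upper quartile scaling. Setdb1, the H3K9 methyltransferase recruited by TRIM28, was at 73.0, 72.7, 85.6 and 79.2 CPM against 63.6, 65.3, 62.7 and 69.1 CPM. Every treated tumour was below every control, at a log2 fold change of -0.25 (SE 0.07). Its cofactor Atf7ip had a log2 fold change of -0.31, the HP1 gene Cbx5 -0.41, and Dnmt1, the maintenance DNA methyltransferase, -0.32. Cbx1 and Cbx3, the other HP1 genes listed, had 0.12 and -0.04, with overlapping groups. Pphln1, a subunit of the HUSH silencing complex, and Morc2a, an ATPase that acts with it, had -0.50 and -0.30, while Mphosph8, the chromodomain subunit of HUSH, had 0.42, with GrB-Fc-KS49 1 the highest. Smarcad1, a remodeler that binds TRIM28, had -0.48, and Wiz, a partner of EHMT1 and EHMT2 as Zfp644 is, had -0.40. With the length and GC trend removed, 7 of the 33 genes were lower at an unadjusted p under 0.05 and the list's median was -0.07. Under the same removal 18.1% of the other protein-coding genes were lower at that p, with a median of -0.05. Atf7ip was then at -0.02, Cbx5 at -0.07, Setdb1 at -0.09, Morc2a at -0.11, Smarcad1 at -0.20 and Dnmt1 at -0.21, while Pphln1, Wiz and Mphosph8 were at -0.34, -0.34 and 0.56. Cbx1 and Cbx3 were then at -0.07 and -0.02.

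Other zinc finger families were set beside the members. In the Zbtb genes at the same level, 25 of 33 had a lower treated mean and the median log2 fold change was -0.20. For Zscan and Zkscan genes, which carry a SCAN domain, the values were 12 of 13 and -0.28. For Klf and Sp genes, which carry few fingers, they were 10 of 18 and -0.01. For 79 other genes with at least 5 matches to the C2H2 pattern, they were 66 of 79 and -0.20, and for 18 KRAB genes under other names 17 of 18 and -0.22. The 124 tested Zfp genes below the level of 5 CPM had a lower mean in 89 cases and a median of -0.16. The members without an overlapping gene on the opposite strand had a lower mean in 147 of 170 cases and a median of -0.28, and those with under 5% shared 31-base words in 84.1% of 170 cases and a median of -0.27. With the length and GC trend removed, the medians were -0.12 for Zbtb, -0.18 for Zscan and Zkscan, 0.08 for Klf and Sp, -0.07 for the other genes with at least 5 fingers, -0.12 for the other KRAB genes and -0.04 for the Zfp genes below the level. The differences between families were not tested.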

How the data were processed

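RNA was measured in 4 IgG and 4 GrB-Fc-KS49 tumours. Per the labels' protocols, libraries were made from enriched mRNA with a stranded kit that marks strand with dUTP. Per the submitters' processing notes, bcl2fastq 2.19.1.403, STAR and the GRCm39 build were used; no gene quantifier, annotation release or strand setting is named in the sources used here. For each gene the authors deposited estimated counts, of which 45.7% to 47.3% per library were exactly whole numbers, and CPM made from them per 1000000 counts of the library after 0.0001 was added. Every gene in the tables had a total of at least 10 counts.

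Members and lists were chosen with earlier results of these data known. Estimated counts were rounded, filtered with filterByExpr and scaled with TMM (trimmed mean of M-values), and the groups were compared in R 4.3.3 by the robust quasi-likelihood F test of edgeR 4.0.16, with Benjamini-Hochberg adjustment over all 19718 genes tested. Printed CPM are TMM-scaled. The exceptions are the level of 5 CPM, the means over all libraries and the median levels of the members with and without a KRAB box. These come from the deposited CPM. The test was tested on simulated data of 19445 genes, with 67, 65 and 64 genes changed 1.5, 2 and 4 times. It recovered 7.5%, 46.2% and 79.7% of them at an adjusted p under 0.05, and 4.4% of its 90 calls were false. Alternatives used DESeq2 1.42.0, limma 3.58.1 and trends fitted with mgcv 1.9.3. Intervals between groups rest on 4 libraries each, and replicate numbers follow accession order and only name libraries.

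Transcript length, GC content and coding sequence came from GENCODE M21 (GRCm38), matched by gene ID, taking the transcript with the longest coding sequence. A C2H2 finger was a match to C-X2-4-C-X12-H-X3-5-H, and a KRAB box a match at an E-value under 0.001 to a profile built from 154 windows found by a stricter pattern. A member shared a 31-base word where another gene's transcript held it. Promoter windows came from RefSeq (GRCm38.p6), and where a gene had several the one with the most CpG was used. Coordinates are those of the deposited table, 1-based, except for promoters.

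Members were named by rule: the 12 lower and 6 higher with the smallest unadjusted p, the 4 with the highest level, those on role lists, the 3 nearest to the CPM level on each side, the 3 most and 3 least variable among controls, and those behind a count of 5 or fewer. Of the corepressor genes, the 8 with the smallest p and Trim28 were named, and Mphosph8 as the sole gene higher at an unadjusted p under 0.05. Cbx1 and Cbx3, the other HP1 genes of that list, were named after their values were seen. Zfp800, Zfp729b, Zfp62, Zfp142, the members with a ZNF143 motif and the KRAB members with a higher mean were named after their values were seen.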

Additional observations from a re-analysis of the deposited data

Results flagged for a closer look

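In 4 of the 110 groups of 4 libraries examined for 55 named Zfp genes, 1 library lay apart from the other 3 by Dixon's criterion, which chance meets in about 1 of 20 groups. Each was a control. Zfp326, a subunit of a complex linking transcription to splicing, was at 23.8 CPM in IgG 4 and at 24.9 to 24.995 CPM in the other controls. Zfp462, a heterochromatin protein, was at 53.48 CPM in IgG 2 and at 42.16 to 43.75 CPM in the others. Zfp532, of the complex with ZMYND8, was at 24.87 CPM in IgG 1 and at 22.84 to 23.12 CPM in the others. Zfp827, which recruits the NuRD complex, was at 58.19 CPM in IgG 3 and at 63.43 to 64.3 CPM in the others.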

How the results depend on the processing

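No paired analysis was possible because the labels give the groups no shared replicate numbers. The count of members past an adjusted p under 0.05 was 0 with edgeR, 102 with DESeq2 (97 lower), 39 with limma-voom and sample weights (all lower), and from 0 to 71 with 1 library left out: 42 without GrB-Fc-KS49 1 and 71 without GrB-Fc-KS49 4. Of the other protein-coding genes, 29.7% passed with DESeq2, 8.75% with sample weights, 8.98% without GrB-Fc-KS49 1 and 22.6% without GrB-Fc-KS49 4. Removing the length and GC trend gave 74 members lower and 5 higher at an unadjusted p under 0.05, 59 lower without overlap, a median of -0.13 and 7 corepressor genes. Under it 18.1% of the other protein-coding genes were lower and 8.76% higher at that p, and 13.8% lower without overlap. Their median was then -0.05. The count of higher members at that p, 8 in the report, was 5 with sample weights, 5 with no low-count filter, 13 with the stricter filter, 13 with upper quartile scaling, 1 without both libraries of the U suffix, 3 at a CPM level of 10, and 3 to 11 with 1 library left out. In these settings the count of lower members, 93 to 126 with 1 library left out, 110 without both U libraries and 101 with upper quartile scaling, stayed within 1.5 times of the value in the report. Of the other protein-coding genes, 19.2% were lower and 20.6% higher at that p with upper quartile scaling, and 19.2% and 12.6% without both U libraries. With 1 library left out, 16.9% to 28.1% of them were lower and 10.9% to 17.6% higher. Their share of higher genes was 12.2% with sample weights, 14.3% with no low-count filter and 18.5% with the stricter filter, beside 15.2% in the report. Upper quartile scaling took the median log2 fold change of the other protein-coding genes from -0.05 to 0.01 and that of the members to -0.20.

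Of 1279 combinations of 64 of the named genes and 20 settings, 30 changed sign. With the trend removed these were Zfp148 at 0.089, Zfp91 at 0.064, Zfp57 at 0.057, Zfp292 at 0.16, Zfp281 at 0.055, Zfp830 at -0.11, Zfp787 at -0.024, Zfp827 at 0.049 and Zfp414 at -0.087. Zfp57 was at 0.019 and 0.017 from the deposited CPM with pseudocounts of 0.25 and 1, at 0.027 with the stricter filter and at 0.052 with upper quartile scaling. Zfp410 was at 0.0019 with sample weights, at 0.0094 with the stricter filter and at 0.033 with upper quartile scaling. Zfp830 was at -0.00023 with no filter. Trim28 was at 0.00028 with the stricter filter and at 0.023 with upper quartile scaling. With 1 library left out the ranges were -0.068 to 0.11 for Zfp57, -0.086 to 0.034 for Zfp410, -0.017 to 0.051 for Zfp830, -0.078 to 0.19 for Zfp422 and -0.089 to 0.024 for Trim28. The cause was not tested. The 4 tumours per group limit the precision of each value, and members near 5 CPM rest on fewer counts.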
